A study of Mus musculus with 4 samples.

Results

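The Dlk1-Meg3 locus on mouse chromosome 12 was described in striatal RNA by 6 gene rows, Dlk1, Rtl1, Dio3, Meg3, Rian and Mirg, out of 32531 gene rows in the count files. The 6 were matched by gene symbol, and all 6 had a row. The group was put together with the regional difference of these genes in view, and it contrasts paternally with maternally expressed genes between nucleus accumbens and dorsal striatum. Their levels and fold changes are therefore a description, given without a test. The accumbens group had 2 libraries of total RNA from dissected nucleus accumbens, and the dorsal striatum group had 2 from dissected dorsal striatum. All 4 came from aged animals, over 20 months old, of the mouse line Drd1-TRAP CP73, and the labels class all 4 as Input. Animals of the line express EGFP/Rpl10a, a ribosomal protein carrying a green fluorescent tag, under the promoter of the dopamine receptor gene Drd1, so every group here carries that transgene. Input RNA comes from the whole dissected tissue and not from the tagged neurons alone. The labels give no strain background. They also do not say whether each library is a different animal, so the p-values cover the spread among these 4 samples and that spread may be technical.

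The locus is imprinted: genes on the copy inherited from one parent are active while the other copy is largely silent. In mouse, the paternal copy expresses the protein-coding genes Dlk1, Rtl1 and Dio3. The maternal copy expresses long noncoding RNAs that also carry clusters of C/D box small nucleolar RNAs (snoRNAs) and microRNAs (miRNAs). These parental labels are background, since counts per gene carry no allele information and parental origin was not measured here. Dlk1 encodes a transmembrane protein related to the ligands of Notch, Rtl1 a protein derived from a retrotransposon, and Dio3 the deiodinase that inactivates thyroid hormone. Meg3 and Rian are noncoding RNAs, Rian hosting snoRNAs, and Mirg is a noncoding RNA whose annotated span holds part of the distal miRNA cluster.

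From the start of Dlk1 to the end of Dio3 the locus covers chr12:109452485-110281097 in RefSeq on GRCm38.p6, a span of 828.6 kb. In the GENCODE M21 annotation of GRCm38, whose chromosomes are those of mm10, Dlk1 lies at chr12:109452823-109463336, Meg3 at chr12:109541001-109571726, Rtl1 at chr12:109589193-109600330, Rian at chr12:109603940-109661716, Mirg at chr12:109729764-109749460 and Dio3 at chr12:110279068-110281097. Rtl1 is on the minus strand and the other 5 genes are on the plus strand. In RefSeq the Rtl1 span, introns included, overlaps that of Meg3 by 6830 bases and that of Rian by 474 bases. The GENCODE spans given above do not overlap. Whether the counting used strand is not stated in the labels or files. It is therefore not known whether the Rtl1 row also holds reads of antisense maternal transcripts. This applies to the overlapping RefSeq bases, the miRNA precursors opposite Rtl1 and the rest of the Rtl1 body.

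The RefSeq promoter windows of Dlk1, Meg3 and Dio3 are shown because they are the outermost paternally expressed genes and the most abundant maternal RNA. Each window runs from 250 bases before to 50 bases after an annotated start and is on the plus strand of GRCm38.p6. For Dlk1 that start is 109452823, downstream of the outermost RefSeq start that opens the locus span. Capitals mark CG dinucleotides, the sites at which mammalian DNA is methylated. RefSeq windows were found for 5 of the 6 genes, with none for Rtl1.
Dlk1 (chr12:109452573-109452872): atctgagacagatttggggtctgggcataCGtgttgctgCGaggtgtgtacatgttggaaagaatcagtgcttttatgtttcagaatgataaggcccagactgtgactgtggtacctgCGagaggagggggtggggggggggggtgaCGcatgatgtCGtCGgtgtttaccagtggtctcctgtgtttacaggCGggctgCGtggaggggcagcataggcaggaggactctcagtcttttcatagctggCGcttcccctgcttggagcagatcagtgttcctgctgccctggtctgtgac
Meg3 (chr12:109540746-109541045): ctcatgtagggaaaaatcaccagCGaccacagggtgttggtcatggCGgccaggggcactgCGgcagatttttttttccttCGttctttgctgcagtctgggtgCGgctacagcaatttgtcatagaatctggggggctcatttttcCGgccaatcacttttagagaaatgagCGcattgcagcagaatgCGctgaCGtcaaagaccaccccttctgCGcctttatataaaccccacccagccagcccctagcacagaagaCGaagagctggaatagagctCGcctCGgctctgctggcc
Dio3 (chr12:110278980-110279279): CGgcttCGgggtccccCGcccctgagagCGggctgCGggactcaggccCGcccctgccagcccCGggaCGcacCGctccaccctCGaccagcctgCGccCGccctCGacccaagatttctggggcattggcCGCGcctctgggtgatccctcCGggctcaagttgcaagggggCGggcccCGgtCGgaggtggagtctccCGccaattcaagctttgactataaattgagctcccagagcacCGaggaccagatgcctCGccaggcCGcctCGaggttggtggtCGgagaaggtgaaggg
The table holds a second Meg3 window, chr12:109545148-109545447, which is not printed. The Dlk1 window held 9 CG dinucleotides, the printed Meg3 window 13, the second Meg3 window 1 and the Dio3 window 25, against a median of 7 over all 32851 windows in the table. The cAMP response element, TGACGTCA, was searched on both strands and was found in the printed Meg3 window, starting at base 194. Among all windows 1.79% held it. The letters TATAAA, also searched on both strands, started at base 226 of the printed Meg3 window and at base 220 of the Dio3 window. In Meg3 a reverse-strand match starting at base 222 overlapped the first. Among all windows 13.6% held these letters. Neither sequence was in the Dlk1 window or the second Meg3 window.

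Dlk1 was higher in accumbens than in dorsal striatum. Its counts were 2315 and 2632 in the accumbens libraries, against 449 and 1077 in the dorsal striatum libraries. After scaling by library size with TMM factors, the level was 287 and 329 CPM (counts relative to library size) in accumbens and 47.2 and 85.8 CPM in dorsal striatum. Both accumbens libraries lay above both dorsal striatum libraries, and the 2 accumbens libraries differed from each other by 1.15-fold, against 1.82-fold for the 2 dorsal striatum libraries. The mean was 308 ± 29.9 CPM for accumbens, against 66.5 ± 27.3 CPM for dorsal striatum (SD, n = 2 each). The fitted log2 fold change, accumbens over dorsal striatum, was 2.21 ± 0.26 (SE), a level 4.61-fold higher in accumbens. In a fit without dorsal striatum replicate 1 it was 1.82, and without dorsal striatum replicate 2 it was 2.70. By abundance Dlk1 ranked 589 and 452 among all gene rows in accumbens, against 3907 and 2327 in dorsal striatum.

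Dio3, at the other end of the locus, was scarcely detected. It had 11 and 12 counts in accumbens, against 1 and 4 in dorsal striatum, which is 1.36 and 1.5 CPM in accumbens and 0.105 and 0.319 CPM in dorsal striatum. The groups did not overlap, and the gene entered the fit only through its accumbens counts. The fitted log2 fold change was 2.63 ± 1.04 (SE). The pooled counts, 23 in accumbens and 5 in dorsal striatum, gave a ratio of scaled levels of 6.32, with an exact 95% interval from 2.35 to 21.3. The interval covers counting error only, and it is no test of a difference, since the gene was chosen on this contrast.

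Rtl1, which lies between Meg3 and Rian in GENCODE, showed a smaller difference than Dlk1 and Dio3, the latter with an SE of 1.04. Its level was 60.7 and 42.0 CPM in accumbens and 45.1 and 34.7 CPM in dorsal striatum. The groups overlapped, since dorsal striatum replicate 1 exceeded accumbens replicate 2. The log2 fold change was 0.37 ± 0.24 (SE). Fits without 1 library ranged from 0.08, without accumbens replicate 1, to 0.61, without accumbens replicate 2. As the strand setting is not stated, the Rtl1 row may also hold reads of antisense maternal transcripts.

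Meg3 was the most abundant RNA of the locus and 1 of the most abundant gene rows in every library. It had 44506 and 43424 counts in accumbens and 63717 and 69601 counts in dorsal striatum. The level was 5513 and 5429 CPM in accumbens and 6695 and 5547 CPM in dorsal striatum. The libraries did not overlap, but accumbens replicate 1 and dorsal striatum replicate 2 lay close together. The log2 fold change was -0.16 ± 0.11 (SE). Meg3 ranked 6 and 7 among all gene rows in accumbens, and 5 and 4 in dorsal striatum. It took 0.517% and 0.512% of all counts in accumbens and 0.709% and 0.587% in dorsal striatum.

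Rian, the host of the snoRNA cluster, had nearly the same log2 fold change as Meg3. Its level was 374 and 449 CPM in accumbens and 478 and 432 CPM in dorsal striatum. The groups overlapped, with a log2 fold change of -0.15 ± 0.14 (SE). Mirg, whose annotated span holds part of the distal miRNA cluster, varied widely between libraries of the same region. It had 36.2 and 15.8 CPM in accumbens and 19.6 and 8.93 CPM in dorsal striatum. The libraries of a region differed by 2.30-fold in accumbens and 2.20-fold in dorsal striatum, and the groups overlapped. Its log2 fold change was 0.87 ± 0.48 (SE), and fits without 1 library ranged from 0.16, without accumbens replicate 1, to 1.52, without dorsal striatum replicate 1.

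**Figure D1:**
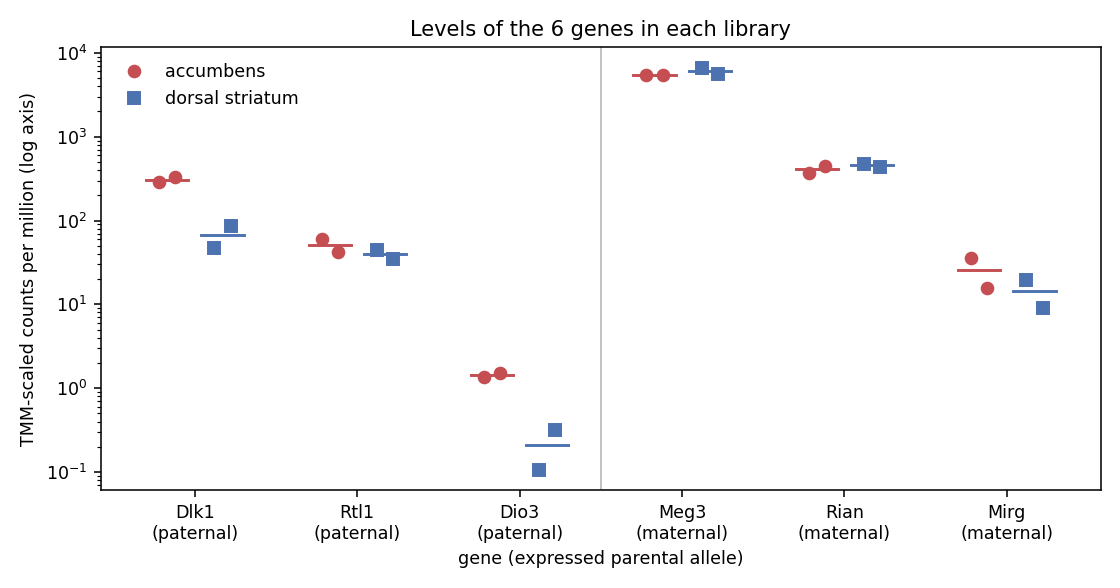
TMM-scaled CPM (log axis) of the 6 genes in the 2 accumbens libraries (red circles) and the 2 dorsal striatum libraries (blue squares), with the group mean as a horizontal line. Dlk1, at 287 and 329 CPM in accumbens against 47.2 and 85.8 CPM in dorsal striatum, and Dio3 stand apart by region, while the points of Rtl1, Rian and Mirg overlap.

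All 6 members passed the count filter. In edgeR's quasi-likelihood fit to all 14493 genes tested, 186 (1.28%) had a Benjamini-Hochberg adjusted p under 0.05. Of these, 144 (0.994% of genes tested) were higher in accumbens and 42 (0.29%) were lower. Dlk1 was the member among them, 1 of 6, and it was higher. The accumbens and dorsal striatum libraries did not overlap for 3 of the 6 members, Dlk1, Dio3 and Meg3, and for 51.2% of all genes tested. The members were chosen on this contrast, so nothing is read from these counts. The paternally expressed genes had log2 fold changes of 2.21, 0.37 and 2.63 for Dlk1, Rtl1 and Dio3, and the maternally expressed genes had -0.16, -0.15 and 0.87 for Meg3, Rian and Mirg. The median over the 6 was 0.62, beside 0.02 over all genes tested. Scaling by library size alone moved the median of all genes to -0.15 and gave 2.03 for Dlk1, -0.33 for Meg3 and -0.32 for Rian. That scaling also changed the balance of calls, with 72 genes higher and 172 lower in accumbens, and upper-quartile scaling gave 128 higher and 62 lower.

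Compared with Meg3 in the same library, which needs no scaling between libraries, Dlk1 again differed by region. There were 19.2 and 16.5 Meg3 counts for each Dlk1 count in accumbens, against 142 and 64.6 in dorsal striatum. On the log2 scale the Dlk1 to Meg3 ratio was -4.15 ± 0.16 in accumbens and -6.58 ± 0.80 in dorsal striatum (SD, n = 2 each), a difference of 2.43. The Rian to Meg3 ratio was nearly constant, with 14.8 and 12.1 Meg3 counts per Rian count in accumbens and 14.0 and 12.8 in dorsal striatum. Its accumbens and dorsal striatum values overlapped, and the mean log2 ratios differed by 0.005. For Rtl1 there were 90.8 and 129 Meg3 counts per count in accumbens, against 149 and 160 in dorsal striatum. The Rtl1 ratios did not overlap between regions, unlike its CPM, and their log2 means differed by 0.51. Meg3, the denominator, was itself higher in both dorsal striatum libraries than in either accumbens library, which widens this difference. The share of all genes tested whose ratios to Meg3 do not overlap was not computed. For CPM the share without overlap was 51.2%. Mirg had 152 and 345 Meg3 counts per count in accumbens and 341 and 621 in dorsal striatum, with overlapping groups. The Mirg to Meg3 log2 means differed by 1.01. These ratios share Meg3 as denominator, so they are not independent of each other.

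**Figure D2:**
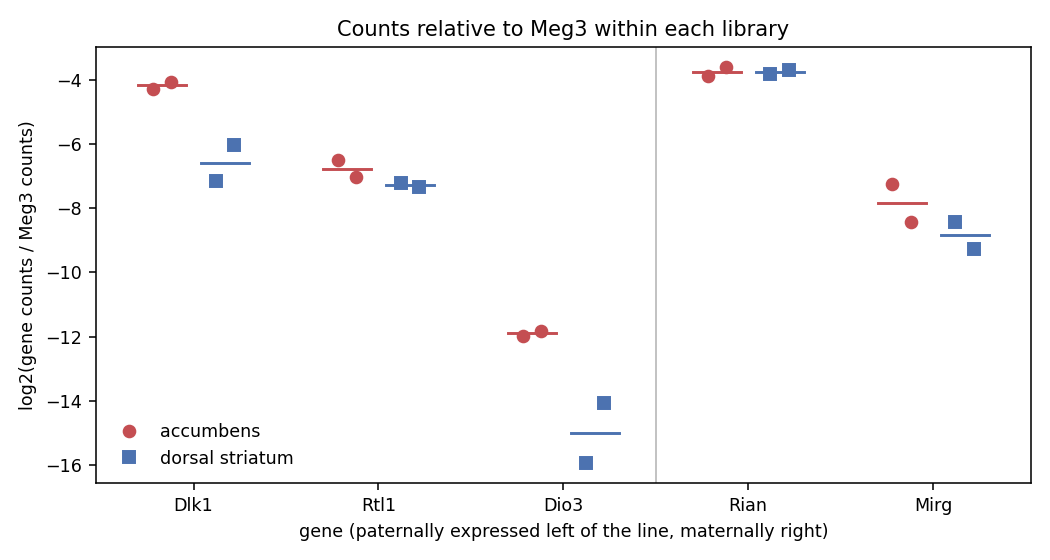
Log2 ratio of each gene's counts to Meg3 counts within a library, for the 2 accumbens libraries (red circles) and the 2 dorsal striatum libraries (blue squares), with the group mean as a line. The Dlk1 means differ by 2.43 between the regions, and the Rian means by 0.005.

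Per length, the order of levels in the locus differed between the regions in 1 place. Values were divided by the union of annotated exon bases. Meg3 stood first, with 302 ± 3.31 CPM per kb in accumbens and 338 ± 44.9 CPM per kb in dorsal striatum (SD, n = 2 each). Dlk1 came next in accumbens at 54.4 ± 5.28 CPM per kb and was at 11.8 ± 4.83 CPM per kb in dorsal striatum. Rian had 22.6 ± 2.92 CPM per kb in accumbens and 24.96 ± 1.77 CPM per kb in dorsal striatum, so it stood below Dlk1 in accumbens and above it in dorsal striatum. Rtl1 came next in both, at 8.08 ± 2.08 CPM per kb in accumbens and 6.27 ± 1.16 CPM per kb in dorsal striatum. Mirg and then Dio3 were lowest. Mirg had 3.56 ± 1.98 CPM per kb in accumbens and 1.96 ± 1.04 CPM per kb in dorsal striatum. Dio3 had 0.705 ± 0.0479 CPM per kb in accumbens and 0.104 ± 0.0744 CPM per kb in dorsal striatum. The libraries of neighbours in this order did not overlap within a region. With the longest transcript as the length instead, Mirg had 9.46 and 4.12 CPM per kb in accumbens beside 9.55 and 6.61 CPM per kb for Rtl1, and these libraries overlapped.

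The small RNAs of the maternal transcripts were counted as rows of their own, and they are not among the 6 genes. RefSeq lists 61 miRNA genes in the locus, of which 58 had a row, and 19 snoRNA genes, of which 5 had a row. The libraries were made from total RNA, and whether small fragments were kept is not given in the sources used here. Of the miRNA rows, 16 were at 0 in every library and 43 had at most 10 counts in every library. All miRNA rows together held 373 and 421 counts in accumbens and 442 and 399 counts in dorsal striatum. The snoRNA rows held 941 and 832 counts in accumbens and 1352 and 1321 counts in dorsal striatum, so most small RNA counts of the locus lay inside Rian.

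A group of miRNAs is transcribed opposite Rtl1 and is fully complementary to the Rtl1 transcript. Mature forms of 5 of them are printed because they bear on how Rtl1 reads can be assigned, with the seed, bases 2 to 8, in capitals (RefSeq, GRCm38.p6, plus strand). The last 2 lines give a pair from the distal cluster that shares a seed.
miR-431-5p: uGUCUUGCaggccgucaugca
miR-433-3p: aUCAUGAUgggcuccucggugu
miR-127-3p: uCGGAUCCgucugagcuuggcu
miR-434-3p: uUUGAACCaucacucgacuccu
miR-136-5p: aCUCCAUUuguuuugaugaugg
miR-379-5p: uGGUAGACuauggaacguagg
miR-1193-5p: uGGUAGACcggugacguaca
The 5 antisense miRNAs have 5 different seeds. The rows Mir431, Mir434 and Mir136 held 0 counts in all 4 libraries, and Mir433 and Mir127 had no row. The row Mir379, for the precursor of miR-379, held 0 and 0 counts in accumbens and 16 and 4 counts in dorsal striatum, too few to enter the fit. Over the whole locus, 113 different mature miRNAs of 61 genes had 104 distinct seeds, and 9 seeds were each shared by 2 different mature forms. The form miR-3070-5p was encoded by both Mir3070a and Mir3070b.

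The C/D box snoRNAs inside Rian gave the deepest small RNA rows. The GENCODE M21 sequences of 2 of them are shown because they carried most snoRNA counts, with box C (TGATGA) and box D (CTGA) in capitals, on the plus strand of GRCm38.
AF357425 (chr12:109636012-109636084): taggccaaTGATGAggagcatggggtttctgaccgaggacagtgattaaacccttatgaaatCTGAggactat
DQ267101 (chr12:109651424-109651496): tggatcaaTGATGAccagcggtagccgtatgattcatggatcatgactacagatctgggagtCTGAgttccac
AF357425 had 148 and 138 counts in accumbens and 297 and 253 counts in dorsal striatum. Its level was 18.3 and 17.3 CPM in accumbens and 31.2 and 20.2 CPM in dorsal striatum, with no overlap. The log2 fold change was -0.53 ± 0.29 (SE), with an edgeR adjusted p of 0.368. DQ267101 has similar copies in the locus, so its counts are uncertain. It had 93.8 and 83.6 CPM in accumbens and 107.7 and 83.0 CPM in dorsal striatum, which overlapped, and a log2 fold change of -0.10 ± 0.18 (SE). The miRNA row with most counts, Mir1188, had 9.29 and 15.6 CPM in accumbens and 8.62 and 6.85 CPM in dorsal striatum. In all, 12 such rows of the locus could be tested, 9 for miRNAs and 3 for snoRNAs, and these rows were chosen by position after the files were seen. Their log2 fold changes were positive for 6 and negative for 6. None of the 12 passed an adjusted p of 0.05 in edgeR, DESeq2 or limma-voom, and 0 had an unadjusted edgeR p under 0.05.

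The genes on either side of the locus were listed to show whether the regional difference ran past its ends. The list of 19 genes also held Dio3os, which lies inside the span next to Dio3 and was not tested. Of the 19, 16 were tested, and 0 passed in edgeR. In the same list, 2 had an unadjusted p under 0.05, DESeq2 called 1 and limma-voom called 0. Their median log2 fold change was 0.09, with 8 positive and 8 negative. Begain, the nearest tested gene of the list on the Dlk1 side and a postsynaptic scaffold-associated protein gene, had 57.0 and 52.5 CPM in accumbens and 26.0 and 33.6 CPM in dorsal striatum. The libraries did not overlap, with a log2 fold change of 0.87 ± 0.21 (SE) and an edgeR adjusted p of 0.0808. DESeq2 gave Begain an adjusted p of 0.0142, the replicate block gave 0.0183, and without dorsal striatum replicate 1 it was 0.790. Ppp2r5c, the nearest tested gene of the list beyond Dio3 and a subunit gene of protein phosphatase 2A, had 73.0 and 87.8 CPM in accumbens and 87.0 and 79.9 CPM in dorsal striatum, with overlapping groups.

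**Figure D3:**
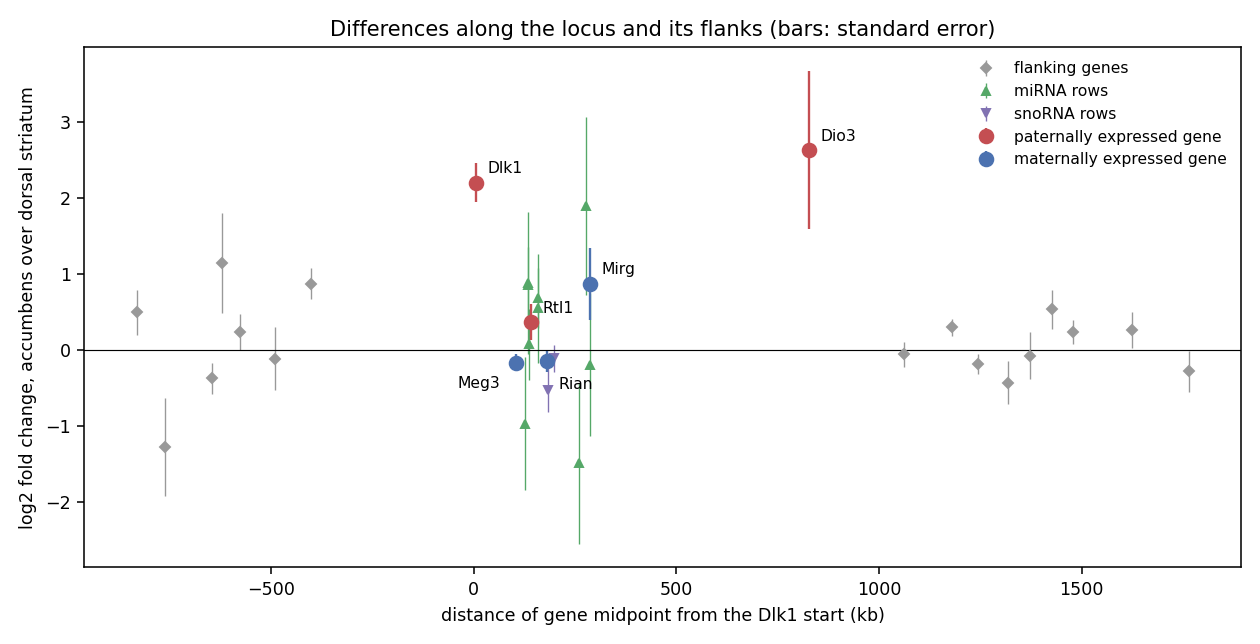
Log2 fold change, accumbens over dorsal striatum, with its standard error, against the distance in kb of a gene's midpoint from the Dlk1 start; red points are paternally and blue points maternally expressed members, grey points are the 16 flanking genes, and triangles are the 9 miRNA rows and the 2 snoRNA rows with a GENCODE position. Dlk1 at 2.21 and Dio3 at 2.63 lie above the members between them and above the flanking genes. The Dio3 point is imprecise, with an SE of 1.04 and only 1 and 4 counts in dorsal striatum.

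Paternally expressed genes outside the locus were compared as a list. Of 21 such genes, 18 were tested, 3 were higher in accumbens in the edgeR fit and 0 were lower, beside 0.994% and 0.29% of all genes tested. The list was chosen with earlier results of these data known, so no enrichment is read from these counts. In the same list 5 had an unadjusted p under 0.05, DESeq2 called 3 higher and 2 lower, and limma-voom called 3 higher and 0 lower. The replicate block gave 3 higher and 1 lower, and the fit without accumbens replicate 2 gave 3 higher and 4 lower. The list median was 0.06, beside 0.02 over all genes tested. Peg10, which like Rtl1 derives from a retrotransposon, had 623 and 643 CPM in accumbens, against 129 and 200 CPM in dorsal striatum. Its log2 fold change was 1.95 ± 0.20 (SE), with an edgeR adjusted p of 0.0233. Mest, which encodes a protein related to hydrolase enzymes, had 166 and 191 CPM in accumbens and 71.7 and 85.8 CPM in dorsal striatum, with a log2 fold change of 1.18 ± 0.16 (SE). Nnat, a small membrane protein gene of neurons, had 863 and 298 CPM in accumbens and 68.0 and 93.9 CPM in dorsal striatum. Its log2 fold change was 2.84 ± 0.44 (SE), and it was 1.87 without accumbens replicate 1. Of 14 genes elsewhere listed as maternally expressed, 9 were tested and 0 passed in edgeR, DESeq2 or limma-voom. In that list 4 had an unadjusted edgeR p under 0.05, and the median log2 fold change was 0.26. H19 and Phlda2 were at 0 in every library. The difference between the paternal and maternal lists was not tested. Whether each listed gene is expressed from a single parental copy in these tissues was not measured.

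The Notch pathway was described in the same way. Dlk1 is related to Notch ligands, and of 27 Notch pathway genes 24 were tested. None passed in edgeR, DESeq2 or limma-voom, 1 had an unadjusted edgeR p under 0.05, and the median log2 fold change was 0.05. Hey1, a transcriptional target of Notch, had 76.6 and 82.8 CPM in accumbens and 79.9 and 88.5 CPM in dorsal striatum, which overlapped. Dner, a further Notch ligand of neurons, had 59.8 and 64.5 CPM in accumbens and 46.9 and 53.0 CPM in dorsal striatum, with a log2 fold change of 0.32 ± 0.17 (SE).

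**Figure D4:**
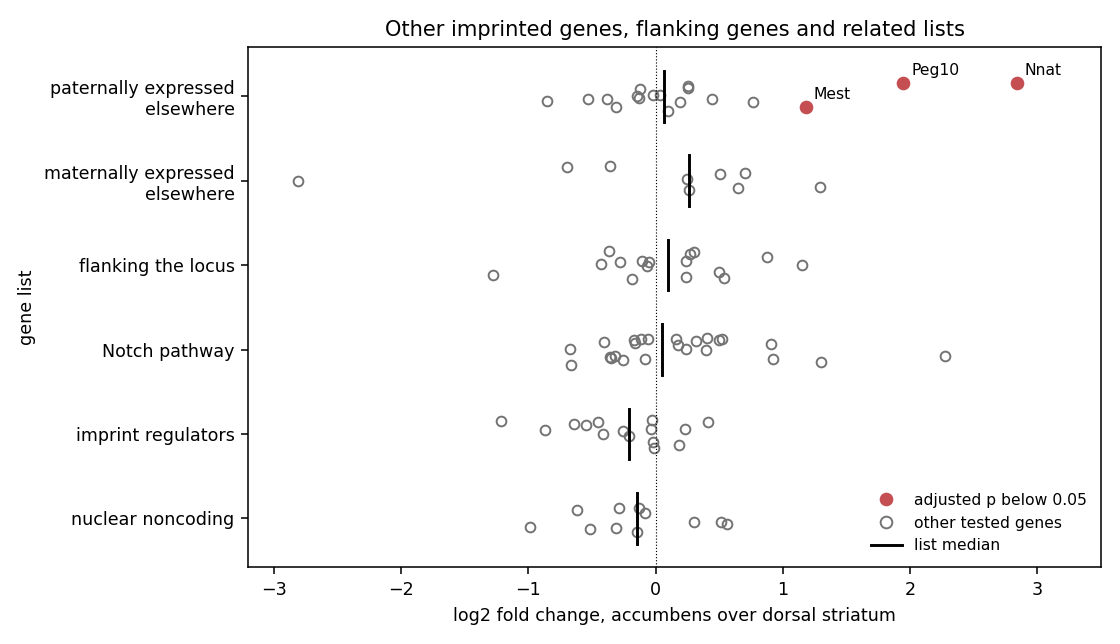
Log2 fold change, accumbens over dorsal striatum, of every tested gene in 6 lists, with red points for genes with an edgeR adjusted p under 0.05 and a black line at the list median. Nnat, Peg10 and Mest, among paternally expressed genes outside the locus, are the points past the threshold.

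The genes closest to Dlk1 in pattern were found by the distance between their log2 CPM, each centred over the 4 libraries. The 5 nearest with a mean log2 CPM of at least 1 were Trhr, Drd3, Peg10, Ccdc23 and Hist1h4d, at distances of 0.15, 0.23, 0.35, 0.49 and 0.50 log2 units. Trhr, the receptor of thyrotropin-releasing hormone, had 12.8 and 13.6 CPM in accumbens and 2.10 and 3.75 CPM in dorsal striatum. Drd3, a dopamine receptor known for its expression in ventral striatum, had 13.9 and 17.5 CPM in accumbens and 2.10 and 3.51 CPM in dorsal striatum. For Meg3 the 5 nearest were Abcd4, Fam160b1, Mdga2, Stag2 and Rev1, at distances of 0.046 to 0.056. With 4 libraries and a small range for Meg3, many genes lie near it.

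Marker genes of the tissue were present and some moved with region. Rows were found for 12 of 13 spiny projection neuron markers, all detected in every library, with summed levels of 6501 and 5388 CPM in accumbens and 7195 and 7325 CPM in dorsal striatum. In this list the edgeR fit called Pdyn higher in accumbens and Rgs9 lower. The 10 cortical glutamatergic markers summed to 382 and 220 CPM in accumbens and 159 and 70.0 CPM in dorsal striatum. Of the 8 tested, 0 passed in edgeR, with 4 at an unadjusted p under 0.05, 1 called by DESeq2 and 2 by limma-voom. The 8 had 6 positive and 2 negative log2 fold changes, with a median of 1.37. Among them Slc17a7 had 198 and 79.4 CPM in accumbens and 32.3 and 0.717 CPM in dorsal striatum. The 14 hypothalamic and septal markers, of which Hcrt was at 0 in every library, summed to 83.9 and 151 CPM in accumbens and 102 and 173 CPM in dorsal striatum. Much of these sums was Lhx6, with 46.2 and 85.5 CPM in accumbens and 48.9 and 65.3 CPM in dorsal striatum. Lhx6 is also in the inhibitory interneuron list, so the sums are no measure of neighbouring tissue alone. The 8 midbrain dopamine markers summed to 28.2 and 41.1 CPM in accumbens and 31.4 and 28.2 CPM in dorsal striatum, with En1, Pitx3 and Foxa2 at 0 in all. The part of the cortical marker difference in the Dlk1 difference was not tested, and in these whole-tissue libraries fewer cells of a type and less RNA per cell cannot be told apart. Among the other 7 marker lists the edgeR fit called Sst, 1 of 8 inhibitory interneuron genes tested, and Gja1, 1 of 8 astrocyte genes tested, both higher in accumbens. The interneuron list had 4 positive and 4 negative log2 fold changes with a median of 0.08, and the astrocyte list 5 positive and 3 negative with a median of 0.17. The call of Gja1 (edgeR adjusted p = 0.0491) was lost under DESeq2 size factors (0.0529), upper-quartile scaling (0.0536) and library size alone (0.0612), without dorsal striatum replicate 1 (0.351) and without dorsal striatum replicate 2 (0.234). The remaining 5 lists were of cholinergic neurons, oligodendrocytes, microglia, vessels and ependyma or choroid plexus. In them 34 genes were tested and 0 passed in edgeR, with 7 at an unadjusted p under 0.05. DESeq2 called 1 and limma-voom called 2. Log2 fold changes were positive for 9 of 10 oligodendrocyte genes (median 0.25) and 7 of 8 microglia genes (median 0.46). They were negative for 4 of 4 cholinergic genes (median -0.28) and 4 of 7 vessel genes (median -0.14). Of 5 ependyma or choroid plexus genes, 3 were negative and 2 positive (median -1.88). Depth was 8606099 and 8478403 counts in accumbens and 8991788 and 11849134 counts in dorsal striatum. The accumbens libraries detected 16915 and 17417 genes, and the dorsal striatum libraries 19519 and 19532. The row Rn45s, the precursor of ribosomal RNA, held 5.61% and 5.94% of accumbens counts and 2.03% and 3.34% of dorsal striatum counts, and its part in the differences of the locus was not tested.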

How the data were processed

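The authors deposited raw counts per gene symbol for each library. Per the submitters' processing notes the tools were STAR 2.0.0e and HTSeq and the build mm10. The gene annotation and strand setting are not stated in the labels or files. Rows for reads in no feature (27.5% to 35.4% of rows summed), ambiguous reads (6.06% to 9.46%) and reads with several alignments (6.98% to 10.2%) stayed out. Groups followed the tissue in the labels, and the design was unpaired.

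Genes kept by filterByExpr were fitted in edgeR 4.0.16 (R 4.3.3; TMM, glmQLFit, glmQLFTest, two-sided, Benjamini-Hochberg over all genes tested, threshold 0.05). The standard error is |log2 fold change| over the square root of the F statistic. The procedure was tested on simulated data. Alternatives covered scaling, filter, DESeq2 1.42.0, limma-voom (limma 3.58.1), a replicate block and each library left out. Adding the miRNA and snoRNA rows inside Rian and Mirg to their hosts was chosen after seeing the data. The members, gene lists, markers and naming rule (up to 4 genes per list past the threshold, otherwise the 2 most abundant) were chosen with earlier results of these data known. The rule also took the pattern neighbours, passing over unnamed gene models. Reads carry no molecular identifiers, so intervals cover counting error only. Values of some genes that the naming rule takes are not reported here.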

Additional observations from a re-analysis of the deposited data

How the results depend on the processing

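The number of genes past the threshold was 186, and it was 1203 without a low-count filter, 473 with at least 10 counts in every library, 933 in DESeq2, 431 in limma-voom and 843 with a replicate block. Leaving out 1 library gave 109 to 4464, with 109 when dorsal striatum replicate 1 was left out, 4464 when accumbens replicate 2 was left out and 2789 when accumbens replicate 1 was left out. The members were chosen on this contrast, so their values over the alternatives, which reuse the same libraries, are a description. Over fits without 1 library, Dlk1 ranged from 1.82 to 2.70 and Dio3 from 2.10 to 3.59. Both were lowest without dorsal striatum replicate 1 and highest without dorsal striatum replicate 2. In the fit to all 4 libraries the SE was 1.04 for Dio3, against 0.26 for Dlk1. Library size scaling alone gave -0.33 for Meg3 and -0.32 for Rian, and the median of all genes moved with it, as given above. A fit without 1 library leaves that region with a single library, which is assumed to vary like the 2 of the other region. Adding the hosted miRNA and snoRNA rows gave 0.69 for Mirg and -0.13 for Rian. Dio3 was not fitted at 10 counts in every library. With a replicate block the Dlk1 log2 fold change was 2.26. The replicate numbers were not taken as pairing samples, since the labels state no shared animal. The correlation of replicate differences between regions was 0.0326 across genes, which cannot show whether the samples were paired. Of 432 list counts recomputed, 317 stayed within 1.5 times and 115 did not. Most list counts were 0 in the main edgeR fit, and a count of 0 that remained 0 was taken as staying. The 317 is therefore no measure of how stable the lists with calls were. Dio3 had 1 to 12 counts per library, and depth limits its values and those of the miRNA rows. The cause of these changes was not tested.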

Other observations

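Regulators of imprints and other nuclear noncoding RNAs were described as 2 further lists. Of 16 imprint regulators, 15 were tested and 0 passed in edgeR, with 5 at an unadjusted p under 0.05, 1 called by DESeq2 and 0 by limma-voom. Their log2 fold changes were negative for 12 and positive for 3, with a median of -0.21. Tet2, an enzyme of DNA demethylation, had 183 and 193 CPM in accumbens and 188 and 190 CPM in dorsal striatum.

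All 11 nuclear noncoding RNAs were tested and 0 passed in edgeR, with 3 at an unadjusted p under 0.05 and 1 called by DESeq2 and 1 by limma-voom. Their summed level was 17481 and 14235 CPM in accumbens and 24994 and 22120 CPM in dorsal striatum. Malat1, a nuclear RNA, made up most of it, with 15384 and 12045 CPM in accumbens and 22144 and 19876 CPM in dorsal striatum. Its log2 fold change was -0.62 ± 0.13 (SE), with an edgeR adjusted p of 0.0610. Over the alternatives Malat1 passed in 11 of 12, with adjusted p from 2.3e-07 to 0.0661. Meg3, which like Malat1 is noncoding, had a log2 fold change of -0.16, and the part of this difference in that of Meg3 was not tested.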
